A study of Danio rerio with 24 samples.

Results

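The CXCL12 chemokine guidance system was followed in zebrafish (Danio rerio) embryos as 5 transcripts. They are the signalling receptors cxcr4a (ENSDARG00000057633) and cxcr4b (ENSDARG00000041959), the scavenger receptor ackr3b (ENSDARG00000058179), and the ligands cxcl12a (ENSDARG00000037116) and cxcl12b (ENSDARG00000055100). They are 5 of the 32521 rows of the deposited table and were taken by gene symbol. The set was selected on earlier results from these same data, in which cxcr4b had drawn attention because its difference between embryos with and without szrd1 guides depended on how Cas13d was delivered. The szrd1 comparisons are therefore given as values without a test, and so is cxcr4b wherever it shares those libraries. RfxCas13d (Cas13d) is a nuclease that cuts RNA matched by a guide RNA, and the series asked how well it knocks down mRNAs in embryos.

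Embryos were injected at the single-cell stage and RNA was sequenced 6 hours after injection, in 24 libraries that form 12 groups of 2 biological replicates. The first set of 6 groups came from transgenic embryos carrying maternal RFP. Its groups were Cas13d mRNA (200 to 250 pg per embryo) with guides against nanog, with guides against rfp, with a reporter and guides against dnd, with the reporter, and alone, and uninjected embryos. The reporter is gfp mRNA (40 pg) that carries the 3′ untranslated region of nanos, and guides were given at 500 to 600 pg. The second set, whose labels name no transgene, had Cas13d protein (3 ng) with the reporter and dnd1 guides, with the reporter, with szrd1 guides, and alone, and Cas13d mRNA with szrd1 guides and alone. The protein dose of replicate 2 with dnd1 guides is unclear in its label. Each library comes from whole embryos, so a change in the number of expressing cells and a change in RNA per cell cannot be told apart.

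Chemokines are secreted proteins that bind G protein-coupled receptors on migrating cells and steer them. In zebrafish, Cxcr4b on primordial germ cells reads Cxcl12a made along their path, and Ackr3b in surrounding tissue takes up Cxcl12a and so shapes its distribution. Cxcr4a is known from the endoderm of the zebrafish gastrula, which it ties to mesoderm that makes Cxcl12b. In zebrafish the microRNA miR-430 is known to act on the transcripts of cxcl12a and ackr3b. Nanog is a maternal transcription factor that helps to switch on the embryo's own genome, dnd1 encodes an RNA-binding protein that germ cells need, and szrd1 encodes a protein named for its SUZ RNA-binding domain.

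Values are in TPM, a length-normalized share of a library's transcripts scaled to the same total in every library. Sequencing depth is not contained in them, and 13927 to 15757 genes per library had at least 1 TPM. Some libraries stood apart from the rest. Embryos given Cas13d protein, alone or with szrd1 guides, held 24.33 to 94.14 TPM of hoxb1b, a Hox gene of the hindbrain, whereas the remaining 20 libraries had 0.9 TPM or less. The group labelled as Cas13d protein plus the reporter held 21.27 and 20.65 TPM of nanos3, below the 31.33 and 27.88 TPM with Cas13d mRNA alone, whereas the same reporter in the first set went with 1432.15 and 1645.85 TPM. The libraries with dnd1 guides and protein held 18.48 and 27.12 TPM on the RFP row, against 0.18 TPM or less in the other 10 libraries of the second set. In replicate 1 with nanog guides, 5 repeat-like loci took 23.2% of all TPM, against 1.62% in replicate 2, which lowers every other value of that library. The targeted transcripts were lower where their guides were given. Nanog measured 33.55 and 44.52 TPM with nanog guides, against 323.79 and 253.25 TPM with Cas13d mRNA. Szrd1 measured 45.3 and 36.34 TPM with guides and protein, against 260.46 and 268.12 TPM with protein, and 54.63 and 71.85 TPM with guides and Cas13d mRNA, against 422.91 and 425.1 TPM with Cas13d mRNA. The RFP row measured 366.36 and 204.78 TPM with rfp guides, against 1393.55 and 1491.02 TPM with Cas13d mRNA.

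The 5 transcripts differed in abundance and in how much they varied. The receptors were the most abundant: over 24 libraries cxcr4b ranged from 28.87 to 298.9 TPM (median 232) and cxcr4a from 50.37 to 269.66 TPM (median 201). The scavenger receptor ackr3b was the steadiest, from 33.12 to 62.77 TPM (median 42.6), a ratio of 1.90 between its highest and lowest library. The ligands were lower, with cxcl12a from 7.47 to 36.94 TPM (median 19.4) and cxcl12b from 4.52 to 59.41 TPM (median 13.4). The highest library exceeded the lowest 13.1 times for cxcl12b, 10.4 times for cxcr4b, 5.35 times for cxcr4a and 4.95 times for cxcl12a. For cxcr4b and ackr3b both extremes lay in the second set. The lowest library for cxcr4a, cxcl12a and cxcl12b was replicate 1 with nanog guides.

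**Figure D1:**
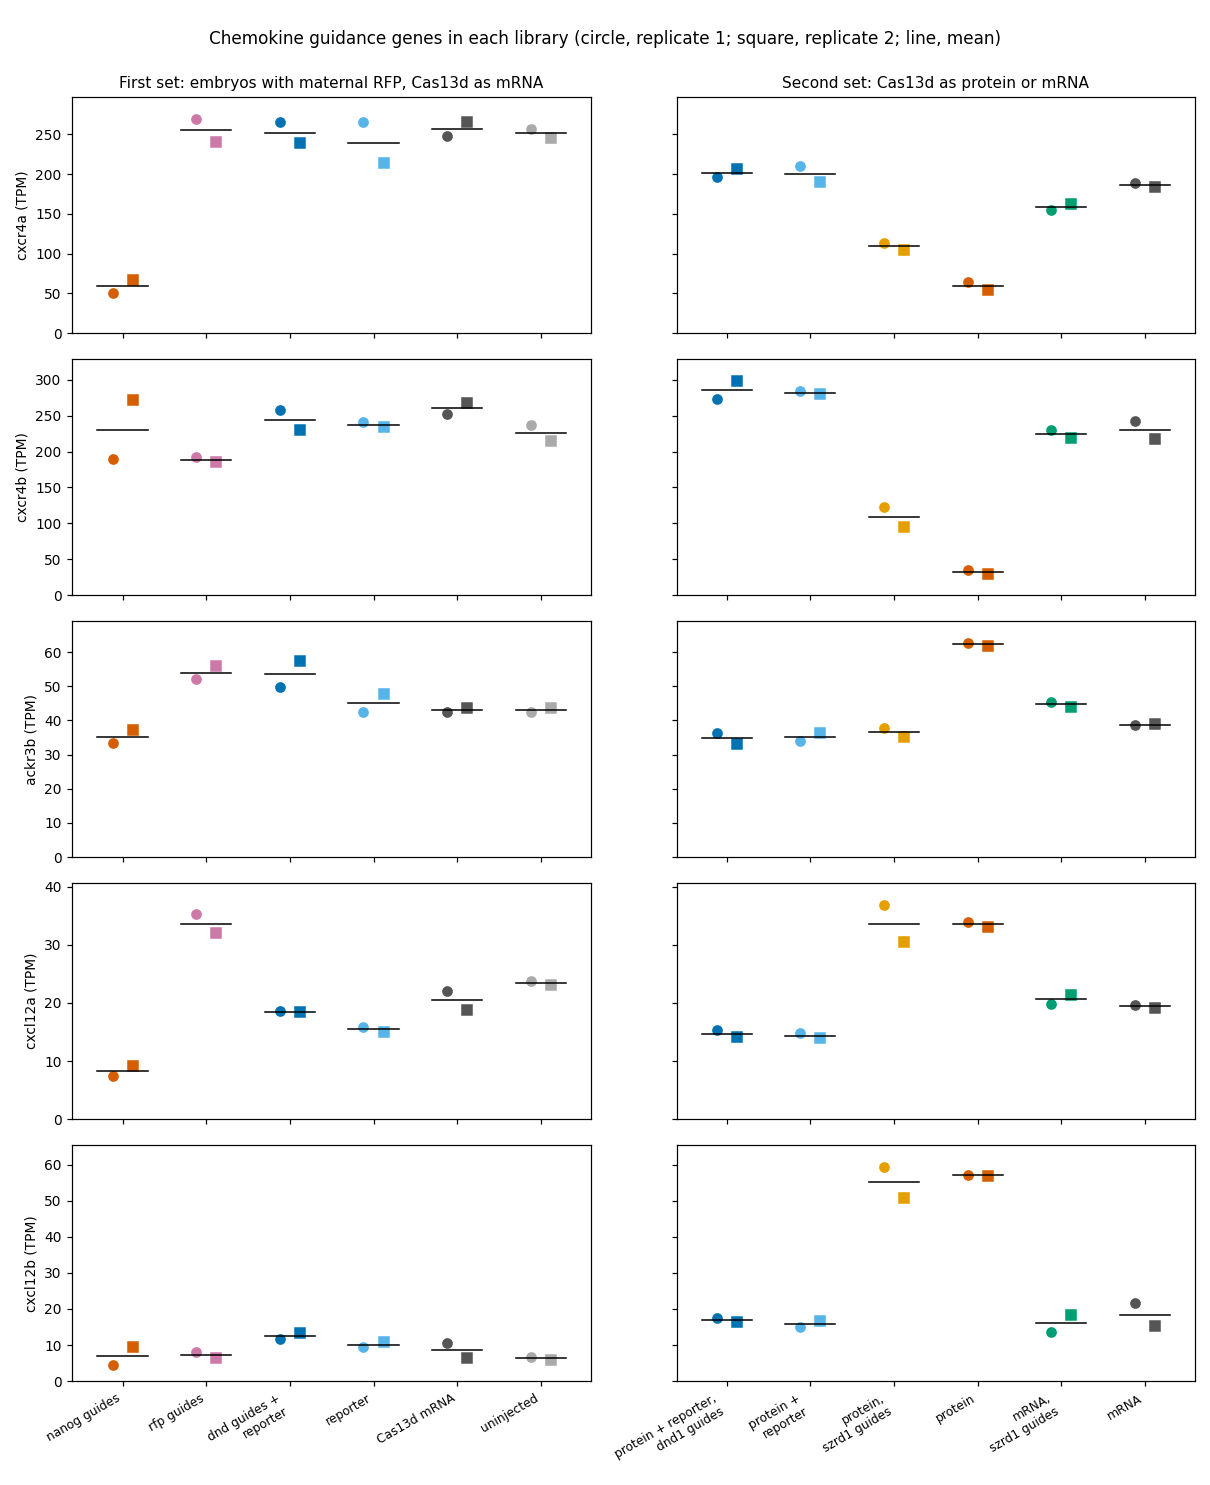
TPM of each of the 5 genes (rows, vertical axis from 0) in each library of the first set (left) and the second set (right); circles are replicate 1, squares replicate 2 and lines the group mean. Nanog guides stand apart for cxcr4a and cxcl12a, and Cas13d protein without reporter, alone or with szrd1 guides, stands apart for both signalling receptors and both ligands.

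With nanog guides, one gene of each paralogous pair was lower and the other was not called. Cxcr4a fell to 22.9% of its mean with Cas13d mRNA alone and cxcl12a fell to 40.6%. Cxcr4b, cxcl12b and ackr3b averaged 88.4%, 81.4% and 81.9% of that control. Calls came from a limma fit over all genes on log2(TPM + 1) and needed both an adjusted p under 0.05 and a log2 fold change of 1 or more in size. By that rule 2 of 5 members were called in this comparison, where 4.07% of all genes were called. Against rfp guides, which target the RFP of the transgene, cxcr4a and cxcl12a were called again, where 3.84% of all genes were called. The nanog libraries are common to both comparisons. With rfp guides against Cas13d mRNA alone no member was called, where 5.99% of all genes were.

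Cxcr4a had 50.37 and 67.29 TPM with nanog guides, against 247.23 and 265.99 TPM with Cas13d mRNA and 269.66 and 240.29 TPM with rfp guides. Both nanog libraries lay below every other library of the first set, the next lowest being 214.06 TPM with the reporter. The log2 fold change was -2.12 (SE 0.17, limma adjusted p 6.57e-06) against Cas13d mRNA and -2.11 (SE 0.17, adjusted p 5.74e-06) against rfp guides. The other 5 groups of the first set overlapped one another in order of their means. Cxcr4a had 256.4 and 245.75 TPM in uninjected embryos, 265.04 and 239.25 TPM with dnd guides, and 265.15 and 214.06 TPM with the reporter.

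Cxcr4b gave 189.1 and 271.59 TPM with nanog guides, against 252.74 and 268.33 TPM with Cas13d mRNA. The groups overlapped, and the lower nanog replicate was the one with the repeat-like loci. The part of these loci alone in the result was not tested. The log2 fold change was -0.20 with a 95% interval from -0.56 to 0.16 (limma adjusted p 0.477). With each library left out in turn, the log2 fold change ran from -0.460 to 0.0604, so its size rests on single libraries. Over the other alternatives it ran from -0.20 to 0.04. The highest limma adjusted p among them, 0.940, came from the scaling without genes over 10000 TPM. A ratio within a library does not depend on such loci. Cxcr4a over cxcr4b was 0.266 and 0.248 with nanog guides, against 0.978 and 0.991 with Cas13d mRNA, and between 0.916 and 1.40 over the 10 libraries without nanog guides. With rfp guides cxcr4b had 192.28 and 185.19 TPM, the lowest mean of the first set and below both libraries of every group but that with nanog guides. Their log2 fold change against Cas13d mRNA was -0.46 (SE 0.17, limma adjusted p 0.0786), which missed the threshold.

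The scavenger receptor ackr3b had 33.3 and 37.27 TPM with nanog guides, 52.13 and 55.89 TPM with rfp guides, and 42.61 and 43.57 TPM with Cas13d mRNA. The 3 groups did not overlap, but the share of all genes apart in this way was not counted, so nothing is read from it. None of the differences was called: the log2 fold change was -0.28 (95% interval -0.62 to 0.05) for nanog guides and 0.32 (-0.02 to 0.65) for rfp guides, both against Cas13d mRNA. Between nanog and rfp guides it was -0.60 (SE 0.15, limma adjusted p 0.0391), which passed the p threshold but not the fold minimum. Over the alternatives other than leaving out a library, that limma adjusted p ran from 0.00117 to 0.559. The highest came when only the compared groups were fitted. With each library left out in turn, the log2 fold change ran from -0.681 to -0.523.

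Cxcl12a, the ligand that guides germ cells, had 7.47 and 9.17 TPM with nanog guides, 35.33 and 32.02 TPM with rfp guides, and 22.13 and 18.85 TPM with Cas13d mRNA. The nanog libraries were the lowest and the rfp libraries the highest of the first set. The log2 fold change was -1.21 (SE 0.18, limma adjusted p 0.00114) with nanog guides against Cas13d mRNA and -1.90 (SE 0.18, adjusted p 1.79e-05) against rfp guides. With rfp guides against Cas13d mRNA it was 0.69 (SE 0.18, adjusted p 0.0250), under the fold minimum. That p rose to 0.262 when replicate 2 of Cas13d mRNA was left out. Further down, the order was uninjected (23.76 and 23.09 TPM), Cas13d mRNA, dnd guides (18.56 and 18.48 TPM) and the reporter (15.89 and 15.09 TPM), each pair of neighbours apart in these 2 replicates. The share of all genes apart in this way was not counted, so no graded order is read from it. Cxcl12a was not called with Cas13d mRNA against uninjected embryos (log2 fold change -0.19, limma adjusted p 0.689). Nor was it called with the reporter against Cas13d mRNA (-0.38, adjusted p 0.285) or with dnd guides against the reporter (0.24).

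Cxcl12b had the lowest group means of the 5 in the first set, at 4.52 and 9.35 TPM with nanog guides, 7.99 and 6.44 TPM with rfp guides, and 10.68 and 6.36 TPM with Cas13d mRNA. The groups overlapped and none was called. The log2 fold change was -0.29 with nanog guides (95% interval -0.93 to 0.34) and -0.18 with rfp guides (-0.81 to 0.45), both against Cas13d mRNA. Cxcl12b over cxcl12a was 0.605 and 1.02 with nanog guides, 0.226 and 0.201 with rfp guides, and 0.483 and 0.337 with Cas13d mRNA.

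Other gene groups moved beside the nanog result. With nanog guides against Cas13d mRNA, 2.12% of all genes were called lower and 1.95% higher. Of 7 mesendoderm markers, 2 were called with nanog guides against Cas13d mRNA, both lower: tbx16, a T-box gene of mesoderm (83.8 ± 13.4 against 295 ± 3.56 TPM, log2 fold change -1.82, limma adjusted p 1.03e-05), and ndr1, a Nodal ligand (7.37 ± 0.0071 against 19.6 ± 0.44 TPM, -1.30, adjusted p 8.44e-04; SD, n = 2 each). Of 6 endoderm markers, 5 were tested and 1 was called: foxa2, a forkhead factor of endoderm and axial mesoderm, was higher (38.9 ± 11.7 against 8.1 ± 0.297 TPM, log2 fold change 2.10, adjusted p 6.68e-05). The endoderm markers summed to 185 to 282 TPM with nanog guides and 251 to 261 TPM with Cas13d mRNA, and the mesendoderm markers to 695 to 967 against 1147 to 1176 TPM. None of 8 germ cell markers was called; they summed to 269 to 386 TPM with nanog guides and 296 to 301 TPM with Cas13d mRNA. Of 7 genes of earlier embryos, btg4 and buc were called higher and nanog and sebox lower, and the list summed to 497 to 669 against 642 to 750.0 TPM. Nanog, the target of the guides, is part of that sum, at 33.55 and 44.52 TPM against 323.79 and 253.25 TPM. The sums therefore mix the knockdown with the other listed genes, and no stage is read from them. The 7 genes of later embryos summed to 77.8 to 105 against 61.4 to 62.7 TPM. Nearly all of this was cdx4, a homeobox gene (77.07 and 103.1 against 60.91 and 62.38 TPM), the only 1 of the 7 that was tested. With rfp guides the earlier list summed to 1197 to 1328 TPM and the later list to 15.5 to 37.8 TPM, again nearly all cdx4 (36.99 and 15.19 TPM). No germ cell, endoderm or mesendoderm marker was at 0 in both libraries of either group, and of the later list meox1 was. The part of these lists in the cxcr4a and cxcl12a results was not tested.

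**Figure D2:**
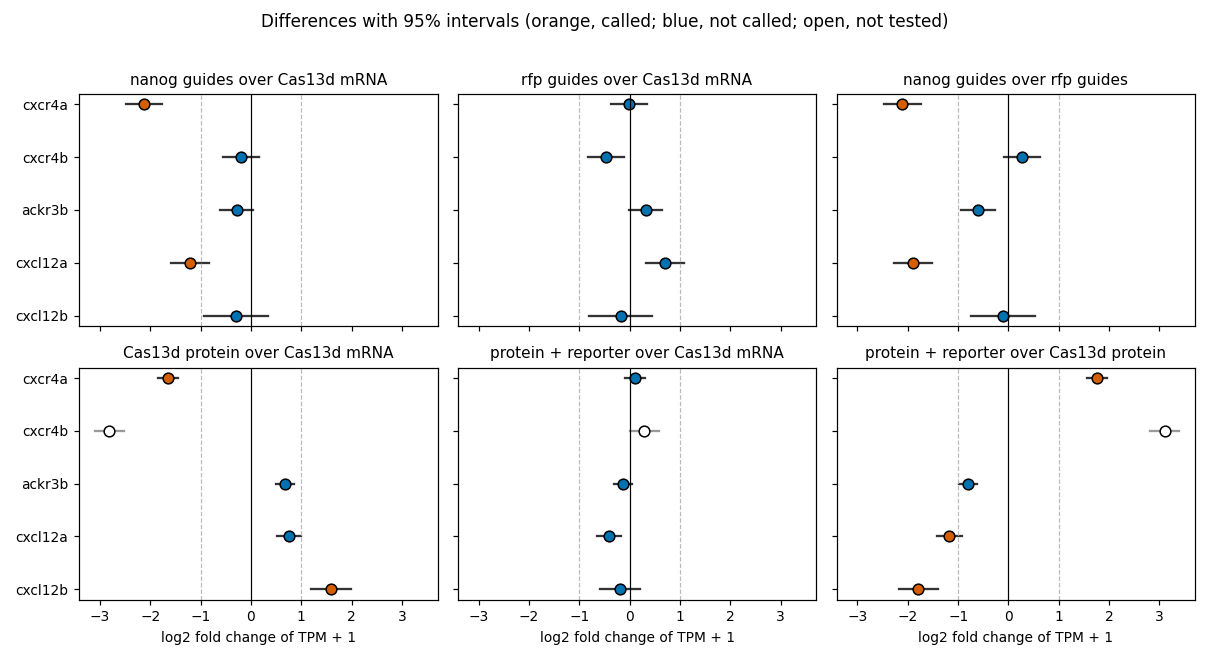
Log2 fold change of TPM + 1 (horizontal axis) of the 5 genes in 6 comparisons, each named above its panel as tested over control; lines are 95% intervals of the limma fit, dashed lines mark the fold minimum, and open circles are values without a test. Cxcr4a and cxcl12a are called under nanog guides. With Cas13d protein against Cas13d mRNA both signalling receptors lie below 0, and both ligands and the scavenger receptor ackr3b lie above 0.

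In the second set, the group with Cas13d protein alone had low signalling receptors and high ligands. Cxcr4a fell to 31.6% of its mean with Cas13d mRNA and cxcl12b rose to 309.6% of it. Cxcr4b averaged 13.9%, cxcl12a 173% and ackr3b 161% of the Cas13d mRNA mean. Of the 4 members tested 2 were called, where 21.9% of all 14716 genes tested were, a high background.

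For the receptors, cxcr4a had 63.62 and 53.91 TPM with Cas13d protein, against 188.72 and 183.25 TPM with Cas13d mRNA (log2 fold change -1.65, SE 0.088, limma adjusted p 5.88e-07). Cxcr4b, given without a test, had 35.29 and 28.87 TPM with protein, against 242.85 and 217.57 TPM with mRNA, a log2 difference of -2.81. Here both receptors were low, unlike under nanog guides. Their ratio, which contains cxcr4b and is also given without a test, turned as well. Cxcr4a over cxcr4b was 1.80 and 1.87 with protein, against 0.777 and 0.842 with mRNA. Ackr3b had 62.77 and 61.83 TPM with protein, against 38.58 and 38.91 TPM with mRNA; its log2 fold change of 0.67 (SE 0.08, adjusted p 7.72e-05) was under the fold minimum.

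For the ligands, cxcl12b had 57.16 and 56.93 TPM with Cas13d protein, against 21.69 and 15.16 TPM with Cas13d mRNA (log2 fold change 1.60, SE 0.18, limma adjusted p 4.94e-05). Cxcl12a had 33.98 and 33.16 TPM with protein, against 19.69 and 19.18 TPM with mRNA (0.76, SE 0.11, adjusted p 2.65e-04), under the fold minimum. No protein library overlapped an mRNA library for any of the 5 genes. The share of all genes apart in this way was not counted, so nothing is read from it. In this comparison 8973 of all 14716 genes tested had an unadjusted limma p under 0.05. The summed TPM of the 2 signalling receptors over that of the 2 ligands was 1.09 and 0.919 with protein, against 10.4 and 11.7 with mRNA. Over the 10 other libraries of the second set this ratio ran from 2.45 to 16.6. The receptor sum contains cxcr4b, which drew attention in these same libraries, so the ratio is a description without a test.

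The group labelled as Cas13d protein plus the reporter did not show this pattern. Cxcr4a had 209.47 and 190.4 TPM there, against 188.72 and 183.25 TPM with Cas13d mRNA (log2 fold change 0.10, 95% interval -0.10 to 0.30). Cxcr4b had 283.8 and 279.74 TPM, cxcl12b 15.01 and 16.62 TPM and ackr3b 34.12 and 36.37 TPM. Of the 5 genes only cxcl12b overlapped with Cas13d mRNA: both signalling receptors lay above it, and ackr3b and cxcl12a below. The share of all genes apart in this way was not counted, so nothing is read from it. For ackr3b the 95% interval of the log2 fold change ran from -0.31 to 0.04. Cxcl12a, at 14.79 and 13.9 TPM against 19.69 and 19.18 TPM, had a log2 difference of -0.41 (SE 0.11, limma adjusted p 0.0374), under the fold minimum. Without replicate 2 of protein with the reporter its adjusted p was 0.192. None of the 4 tested members was called, where 1.64% of all genes were. Set against Cas13d protein alone, these libraries had 3 of 4 tested members called, where 17.6% of all genes were: cxcr4a was higher (1.75, SE 0.088, adjusted p 7.38e-07), and cxcl12a (-1.17, SE 0.11, adjusted p 2.21e-05) and cxcl12b (-1.79, SE 0.18, adjusted p 3.21e-05) were lower. Ackr3b was at -0.81 (SE 0.08, adjusted p 3.21e-05), under the fold minimum, and cxcr4b, not tested, averaged 878% of its mean with protein alone. These comparisons share libraries with the previous one and are not independent of it. The nanos3 level noted above goes against the reporter label of these libraries.

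Stage-related genes differed between the same groups as the chemokine genes. With Cas13d protein against Cas13d mRNA 21.9% of all genes were called, about as many higher as lower. The counts of called genes given here stand against that high background. The 7 genes of earlier embryos, which include nanog, sebox and the egg coat gene zp3b, were all called lower with Cas13d protein against Cas13d mRNA, and summed to 51.3 to 61.7 against 390.1 to 393 TPM. The 7 genes of later embryos summed to 658 to 665 with protein against 136 to 137 TPM with mRNA; 4 of them were tested, of which hoxb1b, rx3 and meox1 passed the filter through the libraries where they were high. Cdx4, a caudal-type homeobox gene, was called higher (565.03 and 548.59 against 136.37 and 135.43 TPM). None of these 14 genes was at 0 in both protein libraries, and hoxa1a was in both mRNA libraries. Hoxb1b measured 78.32 and 94.14 TPM with protein, against 0.11 and 0.1 TPM with mRNA. Germ cell markers summed to 96.8 to 102 TPM with protein against 216 to 269.7 TPM with mRNA, and of 8 tested 3 were called lower, of which piwil1 (2.46 ± 0.389 against 12.4 ± 1.39 TPM; SD, n = 2 each) and dazl (log2 fold change -1.88) fell most. Of 7 mesendoderm markers 4 were called lower, mixl1 (4.36 ± 0.0849 against 76.1 ± 18.8 TPM) and ndr1 (log2 fold change -3.00) most, and the list summed to 612 to 628 against 1122 to 1294 TPM. Of 5 endoderm markers tested 2 were called higher with protein, foxa2 (76.0 ± 2.41 against 17.1 ± 2.71 TPM) and sox17 (17.8 ± 1.09 against 4.57 ± 1.64 TPM; SD, n = 2 each). Endoderm markers summed to 278 to 287 against 225 to 319 TPM, and no germ cell, endoderm or mesendoderm marker was at 0 in both libraries of either group. The part of these differences in the chemokine results was not tested.

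The values with szrd1 guides, which drew attention to cxcr4b, are given as a description. With Cas13d protein, libraries with szrd1 guides lay between protein alone and the Cas13d mRNA libraries for both signalling receptors. Cxcr4b had 122.71 and 95.49 TPM with szrd1 guides and protein, against 35.29 and 28.87 TPM with protein, a log2 difference of 1.73. Cxcr4a had 113.21 and 105.05 TPM with guides and protein, against 63.62 and 53.91 TPM with protein, a log2 difference of 0.89. Neither pair of groups overlapped, but the share of all genes apart in this way was not counted. Across all genes 2.93% were called in this comparison, from which nothing is read about the members.

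Ackr3b lay the other way, with 37.76 and 35.29 TPM where szrd1 guides and protein were given, against 62.77 and 61.83 TPM with protein, a log2 difference of -0.76. The ligands overlapped between these groups. Cxcl12a had 36.94 and 30.44 TPM with guides and protein, against 33.98 and 33.16 TPM with protein, and cxcl12b had 59.41 and 50.76 TPM, against 57.16 and 56.93 TPM. Cxcl12a over ackr3b was 0.978 and 0.863 with guides and protein, above the range of 0.382 to 0.541 over the other 10 libraries of the second set.

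With Cas13d mRNA the szrd1 guides went with smaller differences for both signalling receptors and ackr3b, but not for the ligands. Cxcr4b had 230.13 and 219.03 TPM with guides and mRNA, against 242.85 and 217.57 TPM with mRNA, a log2 difference of -0.03. Cxcr4a had 155.11 and 162.45 TPM with guides and mRNA, against 188.72 and 183.25 TPM with mRNA (-0.23), and ackr3b 45.49 and 43.89 TPM, against 38.58 and 38.91 TPM (0.20). For cxcr4a and ackr3b the groups did not overlap and the direction was opposite to that with protein. How many of all genes did so was not counted, so nothing is read from it. Cxcl12a (19.85 and 21.38 against 19.69 and 19.18 TPM) and cxcl12b (13.58 and 18.44 against 21.69 and 15.16 TPM) differed by 0.08 and -0.19 on the log2 scale. The difference between the effects with protein and with mRNA was 1.76 for cxcr4b, 1.11 for cxcr4a, -0.96 for ackr3b, 0.13 for cxcl12b and -0.08 for cxcl12a. Of all genes 0.924% were called with szrd1 guides and mRNA, and 1.04% for the difference between deliveries.

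The protein control of this comparison is the group with the hoxb1b signal, and the stage-related genes moved with the receptors. Hoxb1b measured 24.33 and 35.6 TPM with szrd1 guides and protein, against 78.32 and 94.14 TPM with protein. Nanog measured 49.86 and 62.78 TPM with guides and protein, against 8.93 and 7.25 TPM with protein. Genes of earlier embryos summed to 148 to 161 against 51.3 to 61.7 TPM and those of later embryos to 379 to 382 against 658 to 665 TPM. Most of the later sums was cdx4, at 352.86 and 337.13 against 565.03 and 548.59 TPM. Set beside the libraries labelled protein with the reporter, cxcr4a and cxcr4b with szrd1 guides and protein were lower, not higher, since those libraries held 190.4 to 209.47 TPM of cxcr4a and 279.74 to 283.8 TPM of cxcr4b. The direction given for szrd1 guides with protein thus rests on the libraries with Cas13d protein alone. The part of the stage-related genes in it was not tested.

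**Figure D3:**
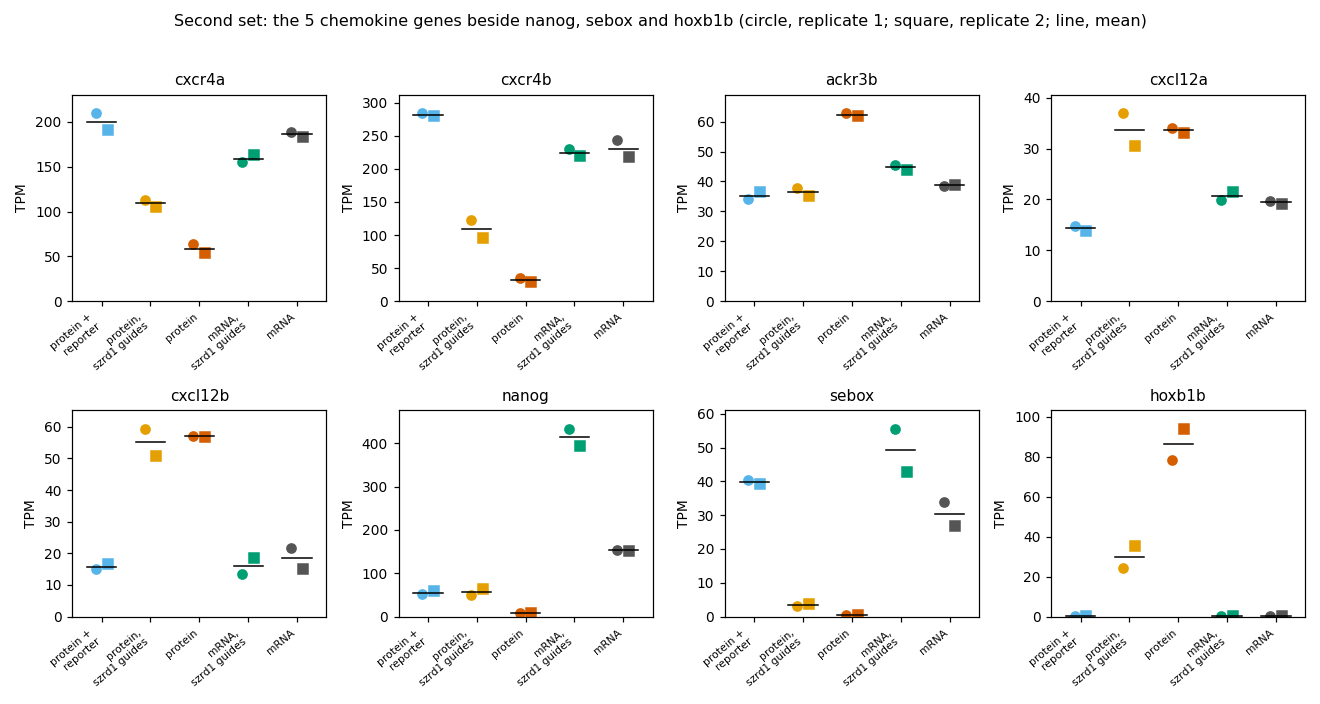
TPM (vertical axes from 0) of the 5 chemokine genes and of nanog, sebox and hoxb1b in 5 groups of the second set; circles are replicate 1, squares replicate 2 and lines the group mean. Libraries with szrd1 guides and protein lie between protein alone and Cas13d mRNA for cxcr4a, cxcr4b and nanog, and hoxb1b is at 24.33 to 94.14 TPM in the groups with protein and no reporter.

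**Figure D4:**
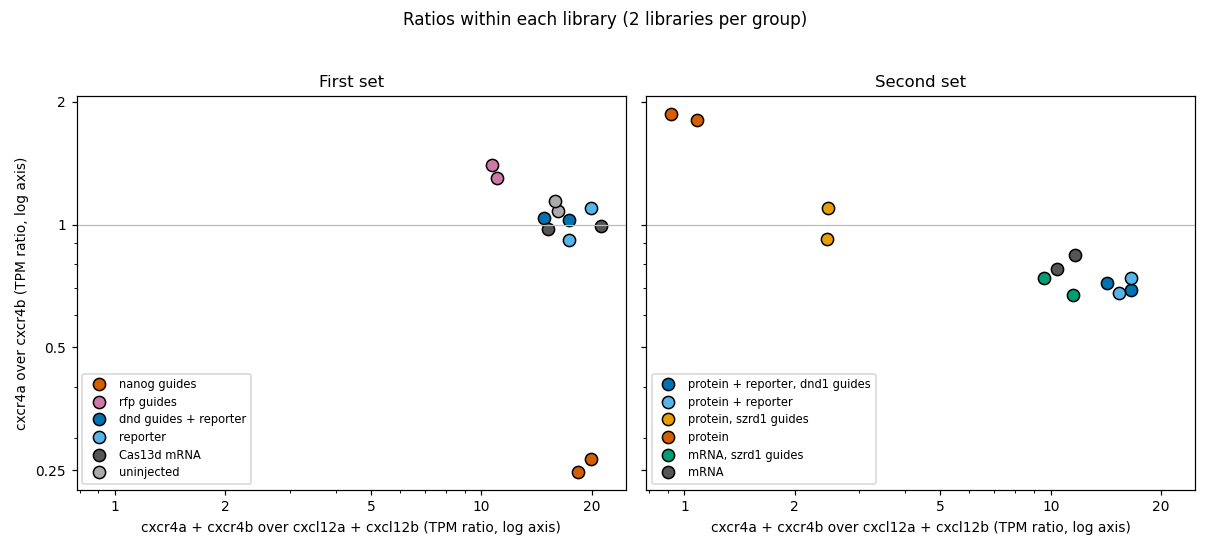
Ratio of cxcr4a to cxcr4b (vertical, log axis) against the ratio of the summed signalling receptors to the summed ligands (horizontal, log axis) in each library of the first set (left) and the second set (right). With nanog guides the first ratio is 0.248 to 0.266 with the second inside the range of the other libraries, and with Cas13d protein alone it is 1.80 to 1.87 at receptor-to-ligand ratios near 1. Both ratios contain cxcr4b, which drew attention in libraries of the second set, so they are descriptions there.

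Guides against dnd1 target a transcript that germ cells need, and germ cells are among the cells guided through Cxcr4b. Whole-embryo values do not show what share of cxcr4b came from germ cells, so a change limited to them could go unseen. At 6 hours none of the 5 members was called in either comparison, where 0.0262% of all genes were called with Cas13d mRNA and 0.408% with protein. Dnd1 itself measured 1.35 and 1.27 TPM with dnd guides, against 10.22 and 12.09 TPM with the reporter, and 0.79 and 1.23 TPM with dnd1 guides and protein, against 6.88 and 7.08 TPM with protein and the reporter. Cxcr4b had 257.92 and 230.7 TPM with dnd guides, against 241.19 and 233.71 TPM with the reporter (log2 fold change 0.04, 95% interval -0.32 to 0.40). With protein it had 273.07 and 298.9 TPM with dnd1 guides, against 283.8 and 279.74 TPM without (0.02, interval -0.26 to 0.30). Cxcl12a had 15.43 and 14.06 TPM with dnd1 guides and protein, against 14.79 and 13.9 TPM (0.04, interval -0.21 to 0.28). Beside this, nanos3 was higher with dnd1 guides and protein (121.24 and 159.61 against 21.27 and 20.65 TPM), as was nanog (195 ± 17.1 against 55.4 ± 3.77 TPM; SD, n = 2 each), and these libraries hold the RFP signal given above. The part of these differences in the result was not tested. For ackr3b the intervals ran from -0.09 to 0.58 with mRNA and from -0.20 to 0.16 with protein.

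Neither Cas13d mRNA nor the reporter by itself went with a called member. No member passed with Cas13d mRNA against uninjected embryos, where 0.00656% of all genes were called, or with the reporter against Cas13d mRNA, where 0.839% were. Cxcr4b had 252.74 and 268.33 TPM with Cas13d mRNA, against 237.48 and 215.32 TPM in uninjected embryos, and ackr3b had 42.61 and 43.57 TPM, against 42.43 and 43.58 TPM. The largest of the 10 log2 fold changes in these comparisons, by size, was that of cxcl12a with the reporter (-0.38, 95% interval -0.76 to -0.00036, limma adjusted p 0.285), at 15.89 and 15.09 TPM, against 22.13 and 18.85 TPM.

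The other chemokine genes that were listed for this comparison were close to silent, and genes outside the list were not looked at. Of 43 rows for other chemokine receptors and ligands, 9 reached 1 TPM in any library, none reached 5 TPM and 4 were at 0 throughout. Ackr3a, the paralog of ackr3b, was at 0.78 TPM or less in all 24 libraries and at 0 in both Cas13d protein libraries. In the first set 4 of these rows passed the filter on low values and none was called in any comparison. In the second set 5 passed it, and with Cas13d protein against Cas13d mRNA, where 21.9% of all genes were called, 2 were called lower: cxcr3.1 (ENSDARG00000007358), a receptor (0.295 ± 0.304 against 1.83 ± 0.177 TPM, log2 fold change -1.15, limma adjusted p 0.00240), and ccl25b, a ligand (0.14 ± 0.014 against 1.78 ± 0.58 TPM, -1.27, adjusted p 0.0132; SD, n = 2 each). Both averaged under 1 TPM with protein and passed the filter through other libraries, so these calls are no support.

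Genes that carry the signal of these receptors were followed as 14 rows for G protein subunits and their regulators, arrestins, receptor kinases and PI3-kinase. In the first set 12 were tested and none was called in its 6 comparisons. In the second set 11 were tested, and 4 were called with Cas13d protein against Cas13d mRNA, where 21.9% of all genes were. The arrestin arrb2b rose (17.1 ± 0.919 against 6.66 ± 0.29 TPM, log2 fold change 1.24, limma adjusted p 1.73e-05; SD, n = 2 each), and arrb2a had 80.75 and 82.0 TPM with protein, against 58.07 and 56.34 TPM with mRNA, under the fold minimum. The 4 inhibitory G protein subunits did not share a direction. The 2 scarcer ones fell, gnai2b with 7.48 and 7.78 TPM with protein, against 21.23 and 18.27 TPM with mRNA, and gnai3 with 0.51 and 0.67 TPM, against 3.0 and 1.6 TPM. The 2 more abundant ones lay higher with protein but under the fold minimum, gnai1 with 48.99 and 50.2 TPM, against 32.38 and 30.95 TPM, and gnai2a with 51.12 and 48.99 TPM, against 32.37 and 34 TPM. The remaining called gene, the receptor kinase grk5, had 10.62 and 11.75 TPM with protein, against 0.42 and 0.6 TPM with mRNA. It passed the filter on low values through the protein libraries, so its call is no support. Gnai3, under 1 TPM in both protein libraries, passed that filter through other libraries, so its call is no support either. With Cas13d protein and the reporter against Cas13d protein, where 17.6% of all genes were called, grk5 and arrb2b were called lower. This comparison uses the same libraries with protein alone. Grk5 passed the filter through libraries with Cas13d protein, so its call is no support here either. With szrd1 guides and protein, rgs14a, a regulator of G protein signalling, had 3.33 and 1.06 TPM, against 0.18 TPM in both libraries with protein.

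The apelin receptor system, a second guidance system of the gastrula, had no called gene outside the szrd1 comparisons. Of its 4 genes 3 were tested, and none was called in the other 10 comparisons. Apela, which encodes a ligand of the apelin receptors, had 404.66 and 395.77 TPM with Cas13d protein, against 290.24 and 277.39 TPM with Cas13d mRNA. With szrd1 guides and mRNA it had 109.89 and 148.28 TPM, against 290.24 and 277.39 TPM with mRNA, given here without a test.

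The genes whose pattern was most like each member were found by the Pearson coefficient of log2(TPM + 1), centred within each set, over 24 libraries and 10233 genes with a mean of at least 5 TPM. For cxcr4a these were si:ch1073-80i24.3 (0.972), trpm5 (0.971) and tiam2b (0.963), and for cxcr4b gpat2 (0.969), zgc:56699 (0.968) and elovl1a (0.967). For cxcl12b they were nudt4b (0.923), cd63 (0.922) and fam210ab (0.921). The coefficients were lower for cxcl12a, with rdh14a (0.879), tubb5 (0.863) and rassf1 (0.860), and lowest for ackr3b, with klf2a (0.856), nasp (0.809) and mgme1 (0.785). Libraries with nanog guides and with Cas13d protein lie far from the rest for several members, and how far the coefficients rest on them was not tested.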

How the data were processed

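RNA of 24 libraries was measured by poly(A)-enriched stranded sequencing with single reads of 75 bp, per the labels' protocols. The authors deposited 1 table of TPM values for all libraries, made with bcl2fastq 2.18, STAR 2.6.1c and RSEM on the danRer11 build, per the submitters' processing notes; the RSEM version, the annotation, its strand setting and any filter are not given in the sources used here. TPM values keep no sequencing depth, so no counting interval or detection limit is given. RSEM divides reads shared by similar genes by estimate. All 24 columns were mapped to samples by title and 0 were left over.

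From the deposited TPM values, log2(TPM + 1) was fitted with limma 3.58.1 in R 4.3.3 (trend, 1 term per group) for each set of 12 libraries apart, over genes with a mean of at least 1 TPM: 15253 in the first set and 14716 in the second. P-values are two-sided, with Benjamini-Hochberg adjustment across the genes fitted in each set, and every adjusted p printed comes from limma. Fold changes on this scale understate the change of low genes. The model was tested on simulated data. Nothing beyond the label "biological" says how replicates were taken, so p-values measure the spread between these samples, pooled over the 6 groups of a set. With 2 against 2 libraries an exact permutation test of a single value cannot reach 0.05, so none was used.

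The members, the gene lists and the comparisons were chosen with earlier results of these data known. The planned design also tested the members other than cxcr4b with szrd1 guides, but no test is given there because the choice of the set used those comparisons. Named genes are all members and, of each list, up to 2 called genes with the highest and 2 with the lowest log2 fold change. Some genes of the signalling list are not reported here, and its counts leave them out. Zp3b, ackr3a, rgs14a, arrb2a, gnai1 and gnai2a were named after their values were seen. The list of other chemokine genes has 43 symbols, of which xcl32a.1 was not matched, and cxcr3.1 has more than 1 row.

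Alternatives to the main settings were a pseudocount of 0.1, no filter, a mean of at least 5 TPM, median-of-ratios and quantile scaling, a fit of only the groups compared or of all 24 libraries, no fold minimum, the replicate number as a block, and leaving out each library. A scaling without genes over 10000 TPM in any library was added after seeing the data. Replicate pairs had at most 0.383% of genes with identical TPM and were used as separate samples. Sequences of the members were not used here.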

Additional observations from a re-analysis of the deposited data

Results flagged for a closer look

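The effects of szrd1 guides with Cas13d protein and with Cas13d mRNA had opposite directions in every library for 2 of the 5 genes. How many of all genes did so was not counted, so the number cannot be set against a background. With mRNA the effects were small, at -0.23 for cxcr4a and 0.20 for ackr3b on the log2 scale. For cxcr4a the effect with protein exceeded that with mRNA by 1.11 on the log2 scale, since both libraries with guides and protein were above both with protein alone, and both with guides and mRNA were below both with mRNA alone. For ackr3b the difference was -0.96, with the directions the other way round. Neither difference was tested, because the genes were chosen with this comparison in view. With each library left out in turn, the difference ran from 0.995 to 1.23 for cxcr4a and from -1.003 to -0.909 for ackr3b.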

How the results depend on the processing

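Of 47 tested member results, 9 were called, and none of the 9 lost its call or changed direction under any alternative. Among 865 recomputed fold changes 53 changed sign, all of values within 0.295 of 0 that were not called. Without a fold minimum, 1 member (cxcl12a) passed with rfp guides against Cas13d mRNA in place of 0, 4 with Cas13d protein against Cas13d mRNA in place of 2, and 1 (cxcl12a) with protein and the reporter against Cas13d mRNA in place of 0. Ackr3b was added with nanog against rfp guides, 3 in place of 2, and with protein and the reporter against protein, 4 in place of 3. Replicate numbers showed no pairing common to a whole set. Over the 15 pairs of groups in a set, differences between replicates correlated from -0.421 to 0.303 in the first set (median 0.002), with 4 pairs over 0.1. In the second they correlated from -0.137 to 0.289 (median 0.001), with 2 pairs over 0.1. Whether some groups were paired cannot be told from these values. With a replicate block the member counts were 2, 0 and 2 in the nanog, rfp and nanog-against-rfp comparisons and 2, 0 and 3 in those of protein and protein with the reporter, as without it. Leaving out 1 library moved cxcl12b with protein against mRNA between 1.36 and 1.85, and the untested difference of cxcr4b between deliveries between 1.58 and 1.94. The background was less stable. Beside 621 genes called with nanog guides there were 265 without replicate 2 of Cas13d mRNA and 1043 without replicate 2 of nanog guides. Beside 913 with rfp guides there were 55 without replicate 2 of Cas13d mRNA and 221 without a filter. Nanog against rfp guides gave 1325 without replicate 1 of nanog guides, beside 585. The reporter against Cas13d mRNA gave 5 without replicate 2 of the reporter, 12 without a filter and 233 with the added scaling, beside 128. Cas13d mRNA against uninjected embryos gave 0 to 16, beside 1, and dnd guides 2 to 11, beside 4. In the second set, dnd1 guides with protein gave 13 without their replicate 2 and 96 in a fit of only the groups compared, beside 60. Szrd1 guides with mRNA gave 0 in that fit, beside 136. Szrd1 guides with protein gave 277 without replicate 2 of protein and 647 with a pseudocount of 0.1, beside 431, and the difference between deliveries 31 to 230, beside 153. Protein against mRNA gave 1987 and protein with the reporter against protein 1629 at a mean of at least 5 TPM, beside 3228 and 2583. Protein with the reporter against Cas13d mRNA gave 86 without its replicate 2, 154 at a mean of at least 5 TPM and 373 with a pseudocount of 0.1, beside 241. The median of all genes shifted by 0.13 with the reporter against Cas13d mRNA, and by 0.13 with nanog guides when genes over 10000 TPM were left out of the scaling.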
